A study of Mus musculus with 8 samples.

Results

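The genes described here are 10 output and repressor genes of the circadian clock: Per1, Per2, Per3, Nr1d1, Nr1d2, Dbp, Tef, Hlf, Ciart and Npas2. They were chosen by name, with earlier results of these data known. A gene was read from the array row annotated with its symbol alone. Where several rows carried it, the one with the highest mean across the 8 hearts was used. Rows were found for 9 of the 10 genes, out of 19938 genes in all. No row carried Npas2 as its only symbol, and Npas2 is not analysed here.

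Affymetrix whole-transcript arrays gave the expression of genes in 4 hearts labelled MHC-Plin5 and 4 labelled control. All came from male mice of a c57/bl background, 12 weeks old, and every source name describes the hearts as fasted. The MHC-Plin5 mice carry extra Plin5, a coat protein of lipid droplets, under a myosin heavy chain promoter, and the series title places the overexpression in cardiomyocytes. The labels name no transgenic line, no littermate relation and no hour of collection. Plin5 itself was 11.7-fold higher, with a log2 difference of 3.54 (SE 0.16, limma adjusted p = 6.9e-07), and its groups of hearts did not overlap. Myh6, the alpha myosin heavy chain of adult cardiomyocytes, had a log2 difference of -0.18 and was not called (limma adjusted p = 0.482).

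The clock of mammalian cells is a loop in which BMAL1, encoded by Arntl, pairs with CLOCK or NPAS2 and switches on genes that carry E-box sequences. The PER and CRY proteins made from these genes shut their own activators down, and REV-ERBα and REV-ERBβ, encoded by Nr1d1 and Nr1d2, repress Arntl. DBP, TEF and HLF are PAR bZIP transcription factors that pass the rhythm on through D-box sequences. CIART, also called CHRONO, is a further repressor of the BMAL1 complex. Cardiomyocytes have this clock, and the transcripts of its output genes rise and fall over the day.

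Promoter sequences are shown for Hlf and Ciart, the genes with a called difference, and for Per3, whose promoter held D-box sequences. They are the 250 bases before the annotated start, 5′ to 3′ on the strand of the gene, from RefSeq on GRCm38.p6. Capitals mark an E-box (CACGTG) in Ciart, a cyclic AMP response element (CRE, TGACGTCA) in Hlf and a D-box (TTATGTAA) in Per3. The Ciart promoter shown is on chromosome 3, whereas the called Ciart row lies by identifier among rows of chromosome 10 genes, as given below.
Hlf (chr11:90390918-90391167, minus strand): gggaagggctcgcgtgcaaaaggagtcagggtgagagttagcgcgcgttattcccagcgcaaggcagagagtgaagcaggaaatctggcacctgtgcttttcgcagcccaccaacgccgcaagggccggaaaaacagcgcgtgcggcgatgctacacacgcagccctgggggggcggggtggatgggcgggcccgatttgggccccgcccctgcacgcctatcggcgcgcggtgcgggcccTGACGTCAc
Ciart (chr3:95882229-95882478, minus strand): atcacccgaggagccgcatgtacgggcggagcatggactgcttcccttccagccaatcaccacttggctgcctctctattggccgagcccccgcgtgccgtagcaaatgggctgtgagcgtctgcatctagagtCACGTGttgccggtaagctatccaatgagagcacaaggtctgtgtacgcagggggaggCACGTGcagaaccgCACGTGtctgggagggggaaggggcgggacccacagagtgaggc
Per3 (chr4:151044666-151044915, minus strand): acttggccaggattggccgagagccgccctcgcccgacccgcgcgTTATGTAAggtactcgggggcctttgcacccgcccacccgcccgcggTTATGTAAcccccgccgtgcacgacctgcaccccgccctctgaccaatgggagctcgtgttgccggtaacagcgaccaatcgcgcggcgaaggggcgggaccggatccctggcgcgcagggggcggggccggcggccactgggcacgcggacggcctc
The search covered 250 bases before to 50 bases after each start on both strands, and promoters were matched for 9 of the 10 genes, without Per2. An E-box was present in 3 of these 9 genes, against 8.09% of 27025 genes in the table. Ciart held 3 copies, and Per1 and Tef held the others. The D-box, searched as TTATGTAA or TTACGTAA, was in 1 of 9 genes, against 1.23% of all genes, and the CRE in 1 of 9, against 2.03%. The core of the ROR and REV-ERB site, searched as TAGGTCA or TGGGTCA, was in 0 of 9, against 7.35%. None of the searched sequences overlapped another in these promoters, and a match describes letters only.

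Of the 9 measured genes, Hlf was called lower and Ciart higher in MHC-Plin5 hearts, and the other 7 were not called. The call of Ciart was lost in 11 of its 22 alternative settings. One of these used the second array row annotated to Ciart (limma adjusted p = 0.0888). A call is an adjusted p under 0.05 in limma, a linear model with moderated variances, with Benjamini-Hochberg adjustment over all 19938 genes. By this rule 3.25% of all genes were called, 2.08% higher and 1.17% lower. At an unadjusted p under 0.05 there were 4 of 9 clock genes, namely Per3, Nr1d1, Hlf and Ciart, against 16.6% of all genes. The hearts of the 2 groups did not overlap in 2 of 9 genes, against 11.2% of all genes. These genes and the related lists below were chosen with earlier results of these data known. Such shares therefore describe the lists and are no test. The median log2 difference, MHC-Plin5 minus control, was -0.07 over the 9 genes and -0.03 over all genes, with 3 of the 9 above 0 and 6 below 0. Heart tissue rather than sorted cells was measured, so fewer cells of a type and less RNA per cell cannot be told apart.

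**Figure D1:**
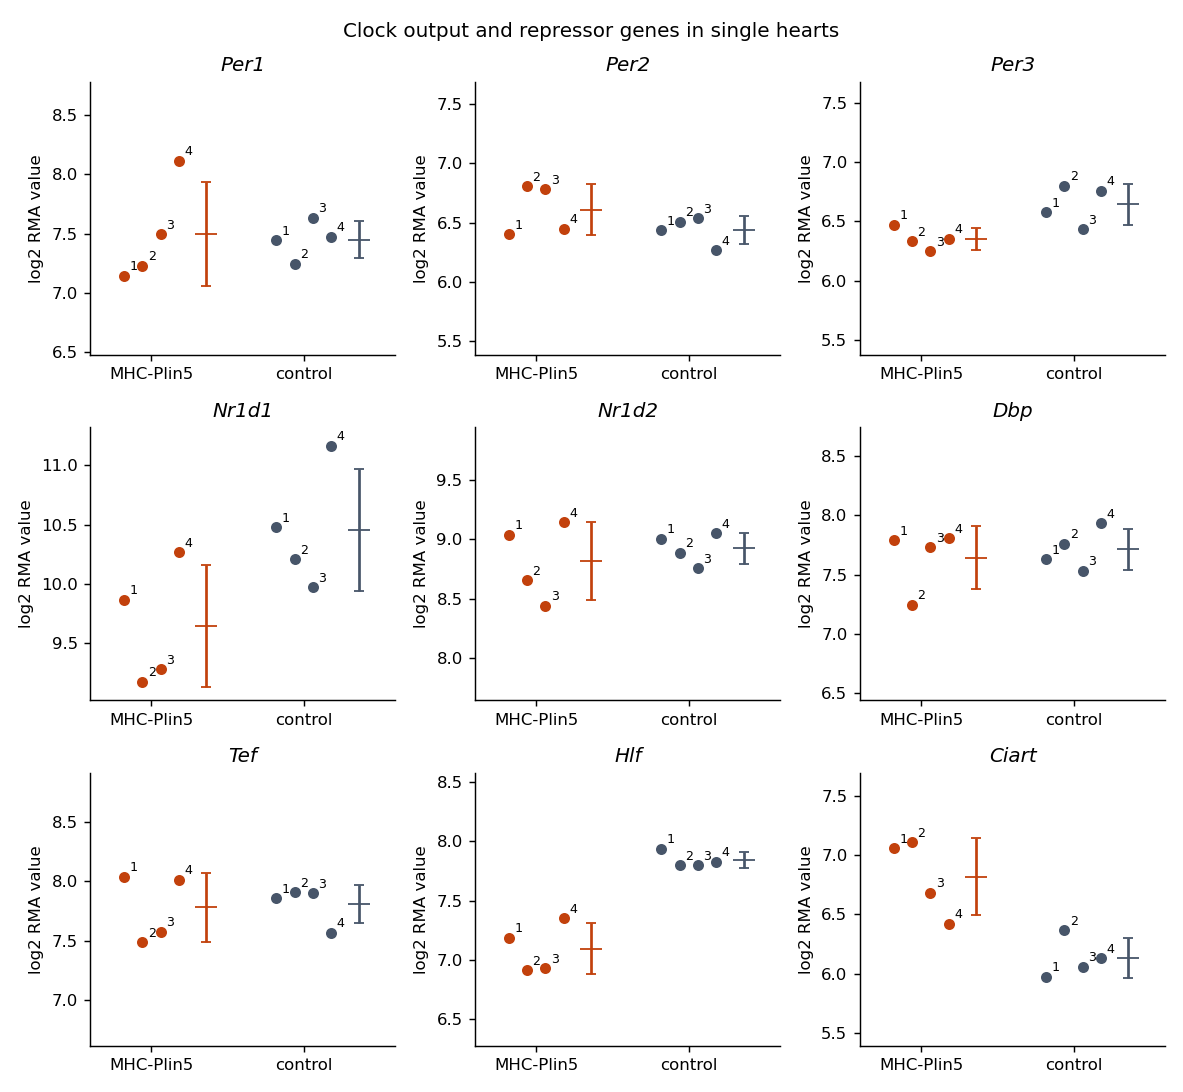
Log2 RMA value (y axis) of the 9 measured clock output and repressor genes in each of 4 MHC-Plin5 and 4 control hearts (x axis), with heart numbers beside the points. Crossbars give the mean and error bars the SD (n = 4), every panel spans the same log2 range, and the groups do not overlap in Hlf and in Ciart.

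Hlf, the hepatic leukemia factor, is 1 of the 3 PAR bZIP factors. Its log2 levels were 7.19, 6.92, 6.93 and 7.35 in MHC-Plin5 hearts 1 to 4, against 7.94, 7.80, 7.80 and 7.83 in control hearts 1 to 4. Every MHC-Plin5 heart lay below every control heart, and the control hearts lay close together. The means were 7.10 ± 0.21 in MHC-Plin5 and 7.84 ± 0.07 in control hearts (SD, n = 4 each). Hlf was thus 1.68-fold lower, with a log2 difference of -0.75 (SE 0.12, 95% interval -0.999 to -0.493, limma adjusted p = 0.00644). A two-sided exact permutation of the hearts gave p = 0.0286, the smallest that 4 against 4 hearts can give. The call held with any 1 heart left out, where the limma adjusted p ran from 0.00217 to 0.0307. In size, the difference of Hlf exceeded that of 97.6% of all genes.

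The other PAR bZIP genes were not called. Dbp, the D-box binding protein with a strong daily rhythm in most tissues, stood at 7.79, 7.25, 7.73 and 7.81 in MHC-Plin5 hearts 1 to 4, against 7.63, 7.76, 7.53 and 7.94 in control hearts 1 to 4. The groups overlapped, and MHC-Plin5 heart 2 was the lowest of the 8. Its log2 difference was -0.07 (SE 0.14, 95% interval -0.38 to 0.24, limma adjusted p = 0.862). Tef, the thyrotroph embryonic factor, stood at 8.04, 7.49, 7.57 and 8.01 in MHC-Plin5 hearts 1 to 4, against 7.86, 7.91, 7.90 and 7.57 in control hearts 1 to 4. MHC-Plin5 hearts 2 and 3 and control heart 4 were the low ones, and the groups overlapped. The log2 difference of Tef was -0.03 (SE 0.15, 95% interval -0.35 to 0.29, limma adjusted p = 0.951). The direction of Dbp and of Tef turned in some settings, as did those of Per1 and Nr1d2.

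Ciart, the repressor of the BMAL1 complex, had log2 levels of 7.06, 7.11, 6.68 and 6.42 in MHC-Plin5 hearts 1 to 4, against 5.98, 6.37, 6.06 and 6.13 in control hearts 1 to 4. All MHC-Plin5 hearts lay above all control hearts, with MHC-Plin5 heart 4 close to control heart 2. The means were 6.82 ± 0.33 in MHC-Plin5 and 6.13 ± 0.17 in control hearts (SD, n = 4 each). Ciart was 1.61-fold higher, with a log2 difference of 0.68 (SE 0.16, 95% interval 0.34 to 1.03, limma adjusted p = 0.0406, exact two-sided permutation p = 0.0286). This call was close to the threshold. It ended without MHC-Plin5 heart 1, 2 or 3 or without any 1 control heart, with limma adjusted p from 0.0579 to 0.13. Without MHC-Plin5 heart 4 the adjusted p was 0.00856. It was 0.0684 with a covariate for the array median and 0.11 with all 35556 rows tested.

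The array carried 2 rows annotated to Ciart, which the other measured clock genes did not have. The row used above has the higher mean. Its 10 nearest rows by identifier, 5 on each side among rows with 1 symbol, belong to genes on chromosome 10, whereas RefSeq places Ciart on chromosome 3. For the second row, all 10 nearest rows belong to genes on chromosome 3. That second row read 6.67, 6.40, 6.72 and 6.43 in MHC-Plin5 hearts 1 to 4, against 5.72, 6.38, 6.11 and 5.99 in control hearts 1 to 4. Again no MHC-Plin5 heart was as low as any control heart, although MHC-Plin5 heart 2 and control heart 2 differed by little. With the second row in place of the first, the log2 difference of Ciart was 0.51 (SE 0.14, limma adjusted p = 0.0888) and was not called. With the mean of both rows it was 0.60 and called (limma adjusted p = 0.0361). Which transcript each row detects was not tested.

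**Figure D2:**
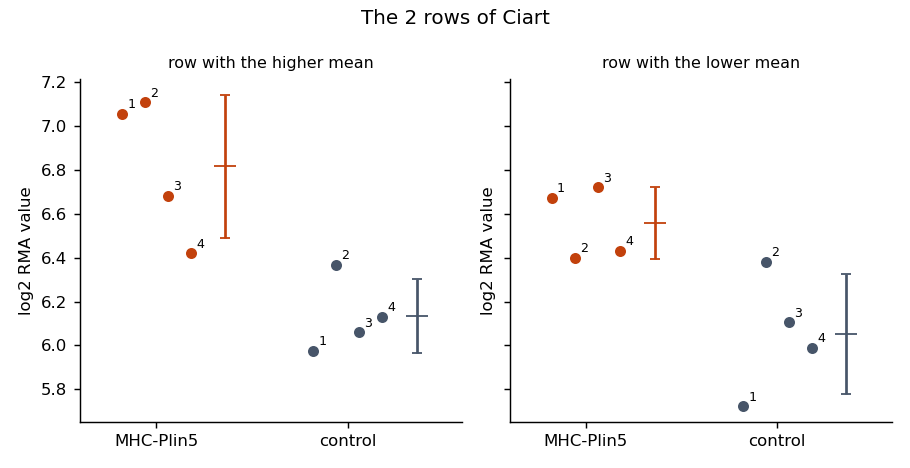
Log2 RMA value (y axis) of the 2 array rows annotated to Ciart in 4 MHC-Plin5 and 4 control hearts (x axis), with heart numbers beside the points, crossbars for the mean and error bars for the SD. In both rows the MHC-Plin5 hearts lie above the control hearts, with log2 differences of 0.68 on the left and 0.51 on the right.

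Nr1d1, which encodes REV-ERBα, had the largest difference in size among the 9 genes and the widest spread. Its log2 levels were 9.87, 9.18, 9.28 and 10.27 in MHC-Plin5 hearts 1 to 4, against 10.48, 10.21, 9.97 and 11.17 in control hearts 1 to 4. MHC-Plin5 heart 4 lay above control hearts 2 and 3, so the groups overlapped, while MHC-Plin5 hearts 1, 2 and 3 were below all control hearts. The means were 9.65 ± 0.51 in MHC-Plin5 and 10.46 ± 0.52 in control hearts (SD, n = 4 each). The log2 difference of -0.81 (SE 0.28, 95% interval -1.42 to -0.19) was not called, with a limma adjusted p of 0.163 and an exact two-sided permutation p of 0.0857. With 1 heart left out the limma adjusted p of Nr1d1 ran from 0.0538 to 0.375. Its spread within groups, an SD of 0.51, was larger than that of 98.4% of all genes. Its paralog Nr1d2, which encodes REV-ERBβ, read 9.04, 8.66, 8.44 and 9.15 in MHC-Plin5 hearts 1 to 4, against 9.00, 8.89, 8.76 and 9.05 in control hearts 1 to 4. MHC-Plin5 hearts lay on both sides of the control range, and the log2 difference was -0.10 (SE 0.15, 95% interval -0.44 to 0.23, limma adjusted p = 0.802). Whether the difference of Nr1d1 departs from that of Nr1d2 was not tested.

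None of the Period genes, which encode the repressors PER1, PER2 and PER3, was called by limma, and 1 of 3 had an unadjusted p under 0.05. Per3 stood at 6.47, 6.33, 6.25 and 6.35 in MHC-Plin5 hearts 1 to 4, against 6.58, 6.80, 6.43 and 6.76 in control hearts 1 to 4. Only MHC-Plin5 heart 1 reached above the lowest control heart. The log2 difference of Per3 was -0.29 (SE 0.11, 95% interval -0.53 to -0.05, limma adjusted p = 0.195, exact two-sided permutation p = 0.0571). Per2 stood at 6.40, 6.81, 6.78 and 6.45 in MHC-Plin5 hearts 1 to 4, against 6.43, 6.51, 6.54 and 6.27 in control hearts 1 to 4. MHC-Plin5 hearts 2 and 3 were the highest of all 8, hearts 1 and 4 lay within the control range, and the log2 difference was 0.17 (SE 0.12, limma adjusted p = 0.533). Without MHC-Plin5 heart 2 it was 0.11. Per1, which also responds to glucocorticoids and other acute signals, stood at 7.15, 7.23, 7.50 and 8.11 in MHC-Plin5 hearts 1 to 4, against 7.44, 7.25, 7.63 and 7.47 in control hearts 1 to 4. MHC-Plin5 heart 4 was the highest and hearts 1 and 2 the lowest of all. The log2 difference was 0.05 (SE 0.19, 95% interval -0.37 to 0.46, limma adjusted p = 0.937), and it was -0.16 without MHC-Plin5 heart 4.

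The 4 MHC-Plin5 hearts were ordered alike in several of these genes, a pattern noticed after the values were seen. Hearts 2 and 3 were the lowest of the 4 in Per3, Nr1d1, Nr1d2, Dbp, Tef and Hlf, 6 of 9 genes, and the highest in Per2. Over all genes the same hearts were the lowest in 28.6% and the highest in 15.6%. Among the 11 measured clock-controlled genes of metabolism and cell function, they were the lowest in 7 and the highest in 2. In those hearts the log2 value minus the control mean was -1.28 and -1.17 for Nr1d1, and -0.93 and -0.91 for Hlf. Plin5 was at 12.17, 12.69, 12.63 and 12.08 in MHC-Plin5 hearts 1 to 4, so hearts 2 and 3 also held the most Plin5 signal. The part of the Plin5 level in this order was not tested. Among control hearts, heart 3 was the lowest in Per3, Nr1d1, Nr1d2, Dbp and Hlf, and heart 4 was the highest in Nr1d1, Nr1d2 and Dbp. Control hearts 2 and 3 also lay below control hearts 1 and 4 in Nr1d1, Nr1d2 and Hlf, though not in Per3, Dbp or Tef. For Nr1d2 the order from low to high was 3, 2, 1, 4 in either group. Low values of hearts 2 and 3 in Nr1d1 and Nr1d2 were thus not confined to MHC-Plin5 hearts.

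**Figure D3:**
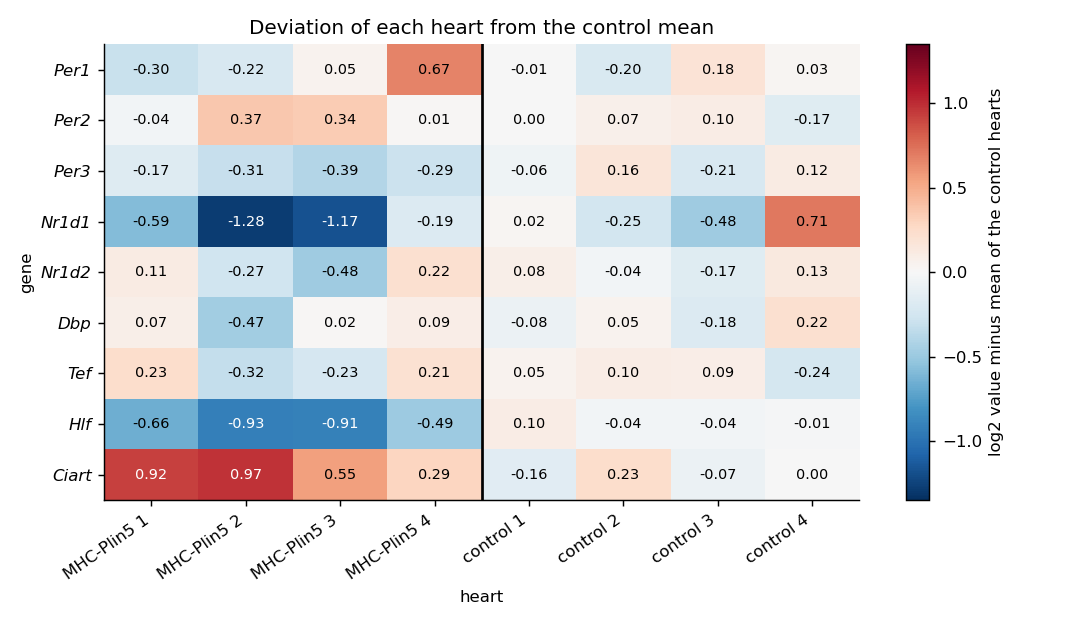
Difference of each heart (x axis) from the mean of the 4 control hearts for the 9 measured genes (y axis), as colour and number on the log2 scale. Hlf is below 0 and Ciart above 0 in all 4 MHC-Plin5 hearts, and Nr1d1 is lowest in MHC-Plin5 hearts 2 and 3.

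The activators and the second loop of the clock were read from the same fit. Of 9 measured genes, limma called 0, and 2 had an unadjusted p under 0.05, against 16.6% of all genes. Arntl, the BMAL1 gene and a target of REV-ERB repression, stood at 8.35, 8.24, 8.18 and 8.34 in MHC-Plin5 hearts 1 to 4, against 8.47, 8.93, 8.72 and 8.41 in control hearts 1 to 4. The MHC-Plin5 hearts were all below the control hearts, with a log2 difference of -0.35 (SE 0.12) that was not called (limma adjusted p = 0.164). Bhlhe41 and Bhlhe40, which encode the E-box repressors DEC2 and DEC1, had log2 differences of 0.47 (SE 0.15, limma adjusted p = 0.137) and 0.51 (SE 0.24, limma adjusted p = 0.309). MHC-Plin5 heart 3 held the highest Bhlhe40 level at 8.81, and without it the log2 difference of Bhlhe40 was 0.26. Cry2, a partner of the PER proteins, had 0.24 (SE 0.11, limma adjusted p = 0.313). The median log2 difference over the 9 genes was 0.24.

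Kinases and turnover factors of the clock proteins were called in 0 of 10 measured genes by limma, against 3.25% of all genes. An unadjusted p under 0.05 was found in 2 of 10, against 16.6% of all genes. The hearts of the 2 groups did not overlap in 4 of 10, against 11.2% of all genes. The log2 difference was above 0 in 7 genes and below 0 in 3. Fbxl21, an F-box protein that acts on the CRY proteins, had the largest log2 difference of these at 0.49 (SE 0.18, limma adjusted p = 0.184). It was 0.29 without MHC-Plin5 heart 3, which read 6.48. The means of Fbxl21 were low, at 5.86 in MHC-Plin5 and 5.36 in control hearts, below the lowest array median of 5.99. The kinases Gsk3b and Csnk1d each had 0.20 (limma adjusted p = 0.283 and 0.342), and Csnk1a1 had 0.19 (limma adjusted p = 0.367). The median over the list was 0.18.

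Among clock-controlled genes of metabolism and cell function, 2 of 11 measured genes fell and 0 rose in limma, against 1.17% lower and 2.08% higher of all genes. An unadjusted p under 0.05 was found in 5 of 11, against 16.6% of all genes. Alas1, the first enzyme of heme synthesis, stood at 11.11, 10.78, 10.75 and 11.07 in MHC-Plin5 hearts 1 to 4, against 11.48, 11.34, 11.43 and 11.57 in control hearts 1 to 4. It was 1.44-fold lower without overlap (log2 difference -0.53, SE 0.11, limma adjusted p = 0.0316). Ucp3, a mitochondrial carrier that also answers to PPAR receptors, stood at 7.25, 7.29, 6.66 and 7.46 in MHC-Plin5 hearts 1 to 4, against 9.09, 9.28, 8.93 and 7.54 in control hearts 1 to 4. Control heart 4 lay just above the MHC-Plin5 hearts, and the log2 difference was -1.55 (SE 0.33, limma adjusted p = 0.0306). The median over the 11 genes was -0.30, with 10 of 11 below 0, against 11465 of all 19938 genes. The list was written with earlier results of these data known, so these shares describe it and are no test. Alas1 was no longer called without MHC-Plin5 heart 2 or 3 or any 1 control heart (limma adjusted p 0.054 to 0.113), nor after median centring of the arrays (0.0538) or with all rows tested (0.0833). Ucp3 lost its call without MHC-Plin5 heart 2 or 3 or control heart 1, 2 or 3 (limma adjusted p 0.0774 to 0.102), without both arrays of highest median (0.0821), with robust variances (0.0716) and with all rows tested (0.0928).

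Glucocorticoids set the clock of peripheral tissues, and 10 genes they induce were listed, of which 9 were measured. Mt2, a metallothionein that also responds to metals and oxidative stress, was the 1 gene called by limma. It stood at 12.57, 13.12, 13.04 and 12.36 in MHC-Plin5 hearts 1 to 4, against 11.49, 11.87, 11.73 and 10.83 in control hearts 1 to 4. Mt2 was 2.45-fold higher without overlap (log2 difference 1.30, SE 0.23, limma adjusted p = 0.0144), and its adjusted p was 0.0519 without MHC-Plin5 heart 2 and 0.0544 with all rows tested. An unadjusted p under 0.05 was found in 4 of 9 genes, against 16.6% of all genes and 3.25% called. Besides Mt2 these were Mt1, its neighbour in the metallothionein family, with a log2 difference of 0.54 (SE 0.14), the kinase gene Sgk1 with 0.32 (SE 0.10) and the phosphatase gene Dusp1 with -0.49 (SE 0.15). None of these 3 was called, with limma adjusted p from 0.0696 to 0.136. The median over the list was 0.24, with 6 genes above 0 and 3 below 0.

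**Figure D4:**
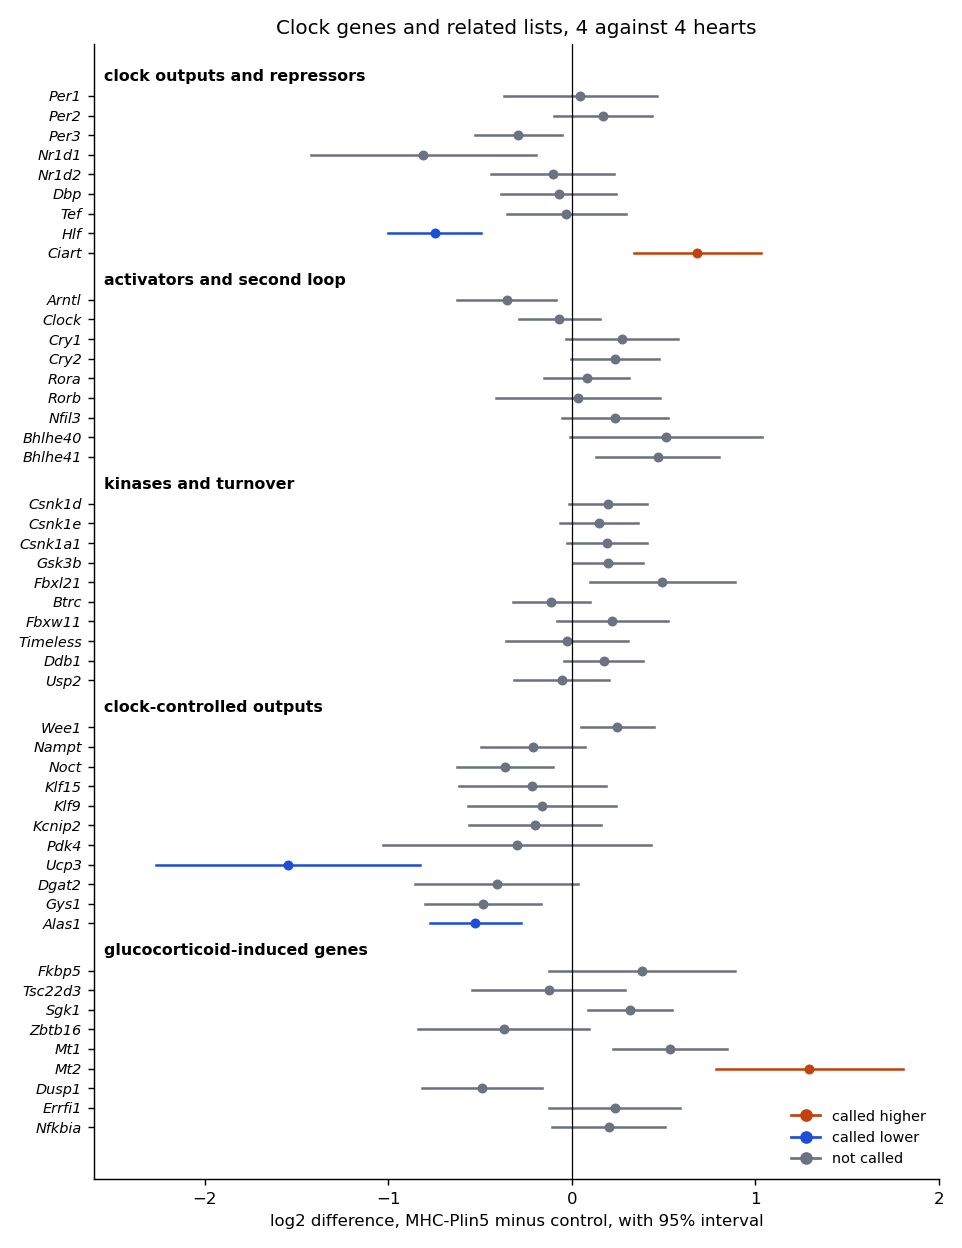
Log2 difference, MHC-Plin5 minus control, with its 95% interval from limma (x axis) for the 9 measured clock output and repressor genes and the 39 measured genes of 4 related lists (y axis). Colours mark calls at an adjusted p under 0.05, namely Ciart and Mt2 higher and Hlf, Ucp3 and Alas1 lower.

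Dbp served as the anchor for likeness between genes. After the control mean of each gene was subtracted, the 5 genes nearest to Dbp over the 8 hearts were Frmd4a, Pcdh17, Mrvi1, Zbtb42 and Rragb. Their root mean square distances to it were 0.0851, 0.0894, 0.0947, 0.0993 and 0.0996 on the log2 scale. The median was 0.266 over the 14803 genes compared, all with a mean of at least 5. Left out were the clock genes themselves and symbols that end in Rik or start with Gm or LOC and hold a digit. Nr1d2 was the nearest of the measured clock genes at 0.209, with 2407 genes nearer, and Ciart the farthest at 0.635. This distance takes in the size of the deviations, the genotype difference included, and not only the order of hearts. Nr1d1 and Hlf had the same order of MHC-Plin5 hearts as Dbp, yet their distances to it were 0.615 and 0.507.

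The arrays had medians between 5.99 and 6.25 on the log2 scale, with the highest in control heart 2 and MHC-Plin5 heart 4. Correlations between hearts over genes lay between 0.974 and 0.995. Cardiomyocyte markers averaged 13.23 to 13.51 in MHC-Plin5 and 13.45 to 13.51 in control hearts. Of 29 measured markers of 8 cell types, limma called 0, and 4 had an unadjusted p under 0.05, against 3.25% and 16.6% of all genes. Atrial markers averaged 8.57 to 11.43 in MHC-Plin5 and 7.77 to 11.61 in control hearts, a wide range in both groups. Among them Myl7 ran wider, from 5.98 to 11.90 in MHC-Plin5 and from 6.35 to 12.92 in control hearts. Sln ran less wide, from 4.76 to 6.44 in MHC-Plin5 and from 4.66 to 6.34 in control hearts. The part of the atrial markers in the clock genes was not tested.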

How the data were processed

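Hearts of 4 MHC-Plin5 and 4 control mice were compared. By the series text each group holds 4 mice, so a heart stands for 1 animal. The deposited log2 values were made by the authors with RMA, which corrects background, normalizes by quantiles and summarises probes. The program was Affymetrix Expression Console, as the submitters' processing notes name it, and its version is not stated there. No scanner files were used, so no batch was tested, and the 4 arrays per group limit the precision.

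Of 35556 rows, 21789 carried exactly 1 gene symbol. The row with the highest mean was kept for 999 genes with several rows, which left 19938 genes. Genes were fitted with limma 3.58.1 in R 4.3.3 (lmFit, eBayes, genotype as the only term, two-sided) after the fit was tested on simulated data. Tables and plots were made in Python 3.11.15. Promoters are RefSeq's on GRCm38.p6, and the genome build behind the array rows is not stated in the labels.

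The clock genes and all lists were chosen with earlier results of these data known. Named are all members, the called genes of each related list or else up to 4 with the smallest p, 5 genes nearest to Dbp, Plin5 and Myh6, and Mt1, Sgk1 and Dusp1, chosen after their values were seen. Alternatives were filters at a mean of 5 or 7, median centring, quantile normalization, array weights, an intensity trend (also with robust variances), every row, the mean over rows, a covariate for the array median, the heart number as a block, each heart left out, both arrays with the highest medians left out, and thresholds of 0.01 and 0.1. The second row of Ciart was added after the data were seen.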

Additional observations from a re-analysis of the deposited data

Results flagged for a closer look

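In 3 cases a value lay far from those of the other hearts of its group, with a gap to the nearest heart, as a share of the group's range, above Dixon's 95% critical value for 4 samples. Dbp was at 7.25 in MHC-Plin5 heart 2, and the gap was 0.867 of the range. Tef was at 7.57 in control heart 4 (0.845 of the range). Gsk3b was at 10.08 in MHC-Plin5 heart 2 (0.832 of the range). In all, 44 groups of hearts over 22 genes were examined, and chance flags about 1 in 20.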

How the results depend on the processing

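Hlf kept its direction and its call in all 23 alternatives, with log2 differences from -0.85 to -0.69. Ciart stayed above 0 in its 22 alternatives (0.51 to 0.89) and lost its call in 11 of them. The number of clock genes called higher was therefore 0 with the array median as a covariate, with every row of the table tested, with a filter at a mean of 7 (which removes Ciart), with the second row of Ciart and at a threshold of 0.01, and 0 to 1 with 1 heart left out. The number called lower was 2 with the replicate block, where Nr1d1 was called (adjusted p = 0.0111), and 1 to 1 with 1 heart left out. Over all genes, same-numbered hearts had correlations of their deviations of 0.187, 0.0254, -0.107 and -0.0403, so the numbers were not taken as pairs. These correlations are no measure for single genes. The SE of Nr1d1 was 0.12 with the block against 0.28 without it, that of Mt2 0.12 against 0.23, and that of Tef 0.16 against 0.15. Whether the heart numbers pair hearts for the clock genes was not tested. The block called 507 genes in all, against 648.

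Over all genes, 415 were higher and 233 lower. These counts became 884 and 741 with array weights, 220 and 81 with every row tested, 129 and 40 at a threshold of 0.01, and 668 and 462 at 0.1. Quantile normalization gave 355 lower. With 1 heart left out they ran from 170 to 614 higher and 56 to 560 lower, and the total was lowest without MHC-Plin5 heart 2 (233) and highest without MHC-Plin5 heart 4 (1174). In the 4 related lists together, 1 gene was higher and 2 lower. Higher counts were 3 with array weights, 2 with a filter at 7, with either intensity trend, with the replicate block and at 0.1, and 0 with every row or at 0.01. Lower counts were 4 with array weights, 1 with robust variances or median centring, and 0 with every row or at 0.01. Leaving out 1 heart gave 0 to 2 higher and 0 to 4 lower.

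Reversals occurred in genes near 0. Tef was at 0.017 with a covariate for the array median and 0.013 after median centring, and Per1 at -0.16 with array weights and -0.23 without both arrays of highest median. With 1 heart left out, Tef ran from -0.115 to 0.0693, Per1 from -0.16 to 0.16, Dbp from -0.13 to 0.061 and Nr1d2 from -0.21 to 0.0221. The cause was not tested for any of these changes.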
